A study of Mus musculus with 4 samples.

Results

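The 10 genes described here carry dietary fat through the enterocyte, the absorptive cell of the intestinal epithelium: Cd36, Fabp1, Fabp2, Mogat2, Dgat1, Mttp, Apob, Apoa1, Apoa4 and Apoc3. They were taken by name for their role and not by a cut-off on a measured value, though with earlier results of these data known. Each was found on the array through the gene name in the scanner files. All 10 were among the 15538 genes tested.

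The study set fresh crypts of the mouse small intestine against organoids that had grown from a second portion of those crypts for 1 week. Crypts are pits of the epithelium with the stem cells at their base, and in culture they form closed epithelial bodies called organoids. The crypt fraction was prepared with EDTA, its villous supernatant was discarded and the rest was strained, and the organoids grew in Matrigel with EGF, R-spondin and Noggin.  Crypts came from 2 mice whose strain, age and sex are not given in the sources used here. For either mouse, crypt RNA and organoid RNA were placed on one Agilent whole genome array, one in Cy3 and one in Cy5, and a further array had the dyes exchanged, for 4 arrays in all. Every value below is therefore an organoid over crypt ratio within a mouse, on the log2 scale, so that -1 is a 2-fold lower level in organoids. A mouse's 2 arrays repeat its 2 RNAs and were averaged, which leaves n = 2 mice, and errors are the SD of the 2 mouse means. The number of arrays and mice limits the precision of each value.

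As background, pancreatic lipase splits dietary triglyceride in the gut lumen into fatty acids and monoacylglycerol. Enterocytes take these up, carry them on small binding proteins to the endoplasmic reticulum and rebuild triglyceride there. The triglyceride is loaded onto apolipoprotein B, and the particle leaves the cell as a chylomicron that also carries smaller apolipoproteins. These genes are known as markers of absorptive cells of the villus, more than of the crypt base.

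Of the 10 genes, 8 were lower in organoids and passed the test (limma, Benjamini-Hochberg adjusted p under 0.05 over all 15538 genes). Over all genes tested, 5.49% passed as lower and 5.43% as higher. None of the 10 passed as higher, and none was higher at an unadjusted p under 0.05, since all 10 means were below 0. Fabp1 and Cd36 did not pass. The median of the 10 log2 ratios was -1.55, against 0.02 over all genes tested, and it was -1.48 in mouse 1 and -1.59 in mouse 2. The fold differences of the 8 ran from 1.85-fold lower for Mttp to 5.84-fold lower for Fabp2. Crypt and organoid levels did not overlap over the 4 arrays for 9 of the 10 genes, a separation with the organoid lower that 16.4% of all genes tested had. In such bulk samples, fewer cells that express these genes and less RNA per cell cannot be told apart. All 10 were well above background in all 8 channels, and none of their spots was saturated.

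**Figure D1:**
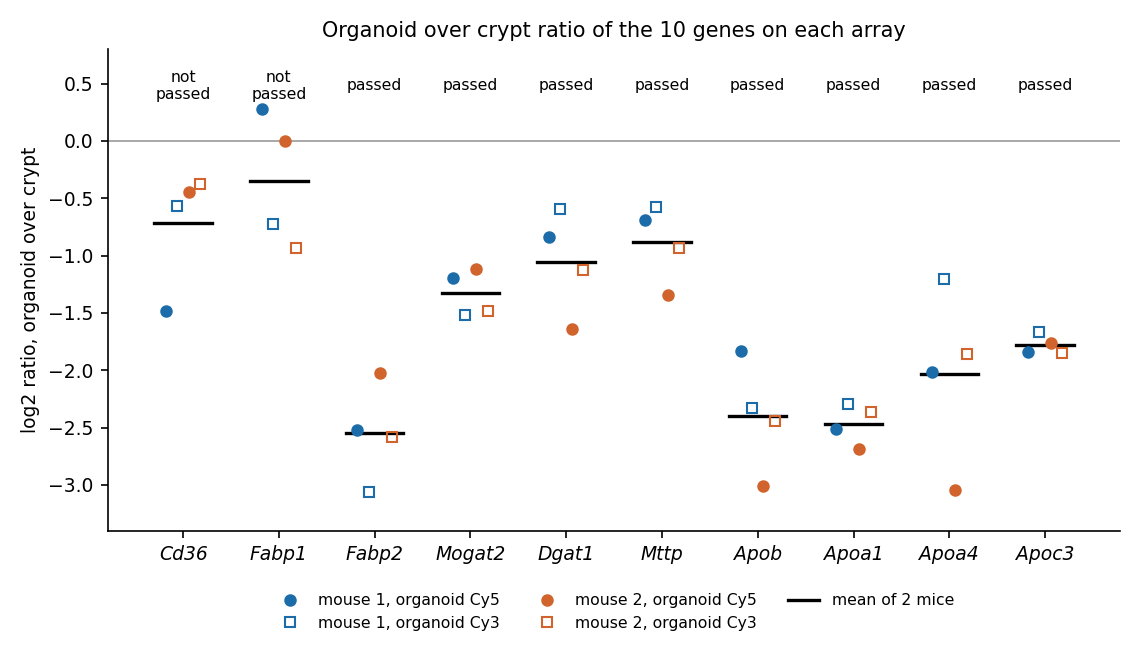
Each point is the log2 ratio of organoid over crypt (vertical axis) of 1 gene on 1 array, with colour for the mouse and symbol for the dye orientation. Black bars are the means of the 2 mice. The 4 points of every gene lie below 0 except those of Fabp1, and Fabp2, Apoa1 and Apob have the lowest means.

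Uptake came first in the order of the pathway. Cd36 is a membrane glycoprotein that binds long-chain fatty acids at the brush border. Its log2 ratios on the 2 arrays of mouse 1 were -1.48 and -0.56, and on those of mouse 2 they were -0.45 and -0.37. The first array of mouse 1, with organoid RNA in Cy5, stood well below the other 3. The mean was -0.72 ± 0.43 (SD, n = 2 mice), with a 95% interval from -1.19 to -0.24, and the gene did not pass the test (limma adjusted p = 0.0759). Its lowest crypt level was 9.07 and its highest organoid level 8.81 on the log2 intensity scale, so the channels were close but did not overlap. The probe lies at chr5:17288600-17288659 in mm9, on the minus strand. A probe upstream of it in the transcript gave -0.57 ± 0.43.

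Fabp1 and Fabp2 encode the liver-type and intestinal-type fatty acid binding proteins, small cytosolic carriers that are both abundant in enterocytes. The 2 genes gave different values. Fabp2 had log2 ratios of -2.52 and -3.06 on the arrays of mouse 1 and of -2.02 and -2.58 on those of mouse 2, each far below 0. Its mean of -2.55 ± 0.34 was the lowest of the 10, a 5.84-fold lower level (95% interval of the log2 ratio -2.97 to -2.12, limma adjusted p = 0.00287). Only 0.348% of all genes tested had a lower ratio. The lowest of its 4 crypt levels was 17.3 and the highest of its 4 organoid levels was 15.6 on the log2 scale. The probe used lies at chr3:122602276-122602335 (mm9, plus strand). The other Fabp2 probe, nearer the start of the transcript, gave -2.10 ± 0.38 and also passed in a fit over all probes. Fabp2 was not the lowest of the 10 in every alternative. With the mean over probes it was at -2.325 and Apoa1 at -2.46.

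Fabp1 had log2 ratios of 0.28 and -0.73 in mouse 1 and of -0.0044 and -0.94 in mouse 2. In both mice the array with organoid RNA in Cy5 was above or almost at 0, and the array with the other dye orientation was well below 0. The mean was -0.35 ± 0.17, with an interval from -0.70 to 0.01, and did not pass (limma adjusted p = 0.188). The dye part of its ratio, which cancels in a mouse's mean, was 0.48, against an SD of 0.15 over all genes tested. Crypt levels, the lowest at 16.5, and organoid levels, the highest at 16.7, overlapped. By this interval Fabp1 lay anywhere from 0.70 below the crypt level to level with it. Other processing moved it beyond that range, to 0.15 with median centring in place of loess. With organoid RNA in Cy5 alone it was at 0.14, and with organoid RNA in Cy3 alone at -0.83. The difference between the 2 carriers was not tested, but their intervals did not overlap. The Fabp1 probe lies at chr6:71154906-71154965 (mm9, plus strand).

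**Figure D2:**
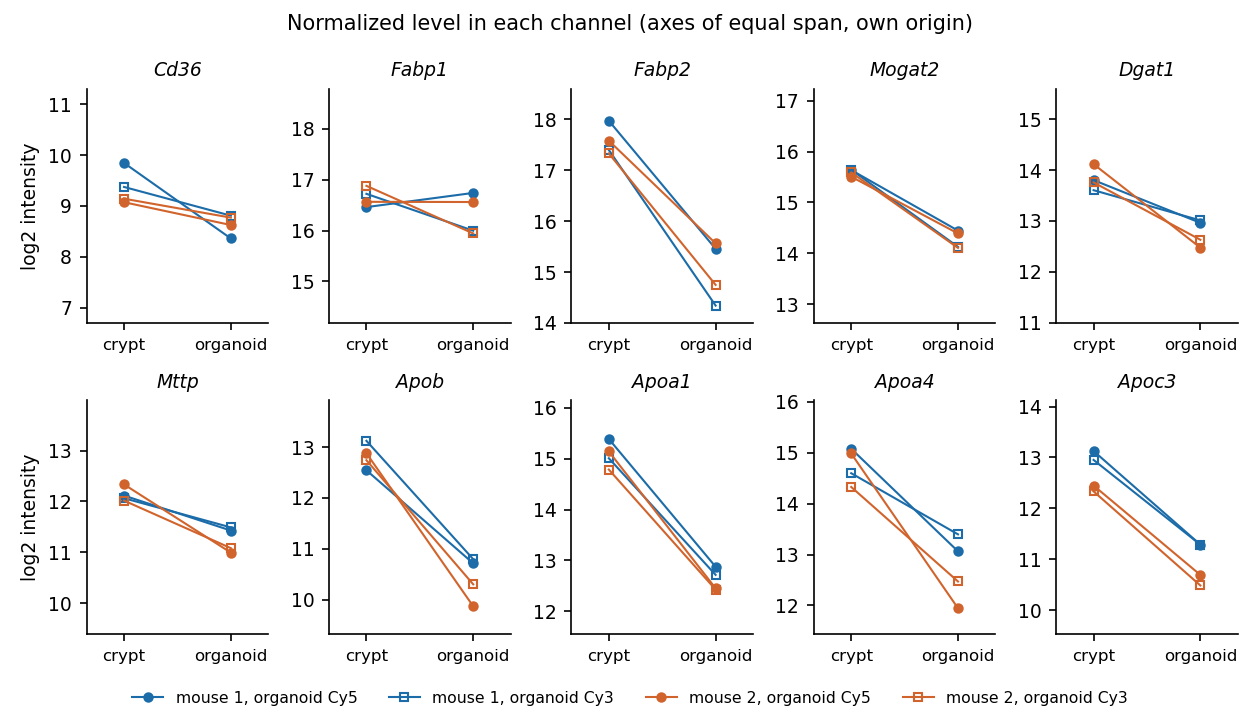
Each panel shows 1 gene, with its normalized log2 intensity (vertical axis, the same span but its own origin in every panel) in the crypt and the organoid channel of each of the 4 arrays. Lines join the 2 channels of an array; they fall in every panel but that of Fabp1, where the lines of the 2 dye orientations diverge.

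The enzymes that rebuild triglyceride were lower. Mogat2 encodes monoacylglycerol acyltransferase 2, which adds a fatty acid to monoacylglycerol and gives the main route of resynthesis in the gut. Its log2 ratios were -1.19 and -1.52 in mouse 1 and -1.12 and -1.49 in mouse 2. The mice agreed closely, with a mean of -1.33 ± 0.04, a 2.51-fold lower level (interval -1.65 to -1.0, limma adjusted p = 0.00632). Its lowest crypt level was 15.5 and its highest organoid level 14.4, with no overlap. Its only probe lies at chr7:106367601-106367660 (mm9, minus strand).

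Dgat1 encodes the diacylglycerol acyltransferase that catalyses the last step. It had log2 ratios of -0.84 and -0.59 in mouse 1 and of -1.64 and -1.13 in mouse 2, lower in mouse 2 on either array. The mean of -1.05 ± 0.47 was a 2.07-fold lower level (interval -1.55 to -0.55, limma adjusted p = 0.0329). The 2 Dgat1 probes gave nearly equal values, -1.05 and -1.06. The one used spans chr15:76333128-76333274 (mm9, minus strand) and so crosses an exon junction. Dgat1 lost its call with the scanner software's own ratios (adjusted p = 0.0688) and in the authors' deposited matrix (0.0652), at nearly the same size.

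Particle assembly rests on Mttp and Apob. Mttp encodes the large subunit of the microsomal triglyceride transfer protein, which loads lipid onto nascent apolipoprotein B. Its log2 ratios were -0.69 and -0.57 in mouse 1 and -1.34 and -0.93 in mouse 2, all below 0. The mean was -0.88 ± 0.36, 1.85-fold lower (interval -1.32 to -0.45, limma adjusted p = 0.0358). The call was lost with the scanner software's ratios (adjusted p = 0.065) and in the deposited matrix (0.0631). Its lowest crypt level was 12.02 and its highest organoid level 11.5. Its probe lies at chr3:137757948-137758007 (mm9, minus strand).

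Apob encodes the structural protein of chylomicrons, of which the intestine makes a shortened form through editing of the mRNA. The probe that represents it had log2 ratios of -1.83 and -2.33 in mouse 1 and of -3.01 and -2.44 in mouse 2. The mean of -2.40 ± 0.46 was a 5.29-fold lower level (interval -2.89 to -1.91, limma adjusted p = 0.00413). The lowest crypt level was 12.5 and the highest organoid level 10.8, so the groups lay far apart.

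Of the 10 genes, 5 had a single probe. Among the other 5, the probes of Apob differed most in size. Its 5 probes are shown because they sample one long transcript at 5 places. They are named by the first base they cover in the transcript and lie on the plus strand of chromosome 12 in mm9:
Apob 3189: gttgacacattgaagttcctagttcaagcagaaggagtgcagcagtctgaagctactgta
Apob 6486: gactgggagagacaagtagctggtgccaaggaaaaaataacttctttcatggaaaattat
Apob 10517: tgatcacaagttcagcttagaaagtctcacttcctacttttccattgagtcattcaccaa
Apob 13397: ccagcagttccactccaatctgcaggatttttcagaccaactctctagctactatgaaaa
Apob 13457: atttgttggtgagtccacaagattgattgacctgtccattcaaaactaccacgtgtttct

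The first spans chr12:8005482-8007691, which takes in an intron, and the second lies at chr12:8014710-8014769. The third lies at chr12:8018741-8018800. The last pair abut, at chr12:8023134-8023193 and chr12:8023194-8023253. From the first to the last, the log2 ratios were -0.84 ± 0.50, -0.89 ± 0.18, -0.59 ± 0.25, -2.39 ± 0.49 and -2.40 ± 0.46. Both mice were below 0 at every probe. In a fit over all 21923 tested probes, the probe at 6486 (limma adjusted p = 0.023) and the pair near the end passed, and those at 3189 (0.067) and 10517 (0.077) did not. The 3 probes with the smaller ratios were also the dimmer ones, with mean crypt intensities of 464, 1765 and 301 against 6044 and 7246 for the pair. Without the offset of 50 that was added to each intensity, the ratios at 3189 and 10517 were -1.03 and -0.84. In the scanner software's own ratios these probes were at -1.50 and -1.25, and the probe at 6486 was at -1.01. The pair near the end stood at -2.55 and -2.53 there, still the lowest, and with the mean over the 5 probes Apob was at -1.42 and kept its call (adjusted p = 0.0114). The part of probe brightness in this difference was not tested further.

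**Figure D3:**
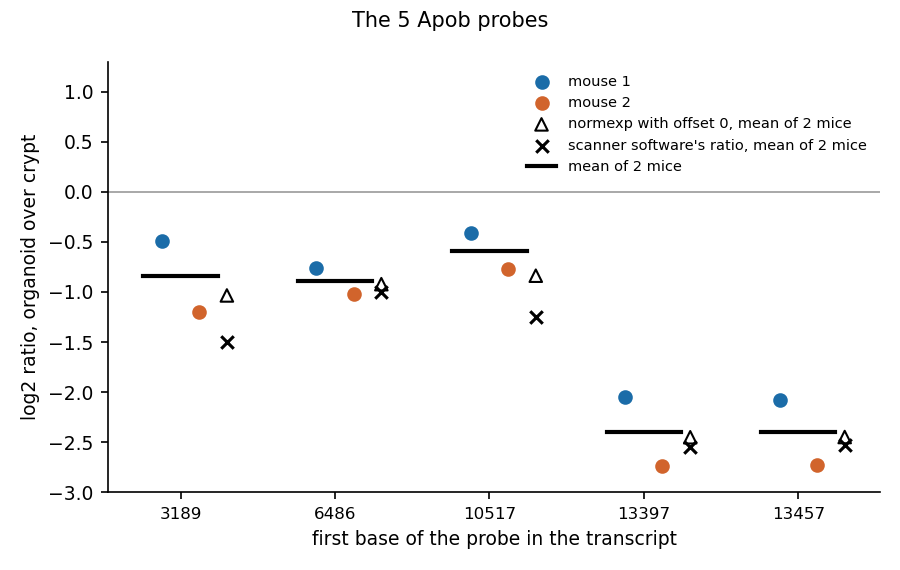
The log2 ratio of organoid over crypt (vertical axis) is shown at each of the 5 Apob probes, in order of the first base covered in the transcript (horizontal axis, not to scale). Points are the 2 mice, bars their mean, triangles the mean with a normexp offset of 0 and crosses the scanner software's ratio. The points of the 2 probes near the end lie below -2 in both mice, and those of the other 3 lie between -1.20 and -0.42. The crosses of these 3 reach down to -1.50.

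The smaller apolipoproteins fell together with Apob. Apoa1 encodes the main protein of high-density lipoprotein, which the intestine makes along with the liver. Its log2 ratios were -2.51 and -2.29 in mouse 1 and -2.69 and -2.36 in mouse 2, all far below 0. The mean was -2.46 ± 0.09, a 5.52-fold lower level (interval -2.80 to -2.13, limma adjusted p = 0.00182, the smallest of the 10). Its probe at chr9:46037921-46037980 (mm9, plus strand) is printed 10 times on each array. The SD over those 10 spots was 0.03 to 0.05, smaller than the difference between dye orientations within a mouse. The lowest crypt level was 14.8 and the highest organoid level 12.9.

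Apoa4 encodes an apolipoprotein made chiefly by the small intestine and secreted on chylomicrons. It varied most of the 10: its log2 ratios were -2.02 and -1.20 in mouse 1 and -3.04 and -1.86 in mouse 2. Both mice were lower on the array with organoid RNA in Cy5, and mouse 2 was the lower of the mice. The mean was -2.03 ± 0.59, a 4.08-fold lower level (interval -2.60 to -1.46, limma adjusted p = 0.00887). Even so, the lowest crypt level of 14.3 lay above the highest organoid level of 13.4. The probe spans chr9:46049661-46050404 (mm9, plus strand) and crosses an exon junction.

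Apoc3 encodes an inhibitor of lipoprotein lipase that slows the clearance of triglyceride-rich particles. Its log2 ratios were -1.84 and -1.67 in mouse 1 and -1.76 and -1.85 in mouse 2, within a narrow range. The mean was -1.78 ± 0.03, a 3.43-fold lower level (interval -2.11 to -1.45, limma adjusted p = 0.00343). It has 2 probes, shown here because they overlap and so are not independent readings; the 50 bases they share are in capitals:
Apoc3 235: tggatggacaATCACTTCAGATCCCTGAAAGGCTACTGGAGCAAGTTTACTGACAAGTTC
Apoc3 245: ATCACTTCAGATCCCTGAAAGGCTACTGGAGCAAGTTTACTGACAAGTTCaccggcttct

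They lie at chr9:46041363-46041422 and chr9:46041353-46041412 (mm9, minus strand) and gave -1.70 ± 0.05 and -1.78 ± 0.03. Apoa1, Apoc3 and Apoa4 are neighbours on chromosome 9, in one cluster of apolipoprotein genes.

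Mouse 1 and mouse 2 were close for Apoa1, Apoc3 and Mogat2, with differences of 0.05 to 0.12. Mouse 2 was the lower by 0.51 to 0.84 for Mttp, Apob, Dgat1 and Apoa4, and the higher by 0.49 for Fabp2 and by 0.61 for Cd36. No test of the difference between single mice is possible. Over all probes of the 10 genes, 18 of 18 were below 0 in both mice. The share of all tested probes below 0 in both mice is not given here, so the count only describes these probes. Probes of one gene are also not independent readings.

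Promoters of the 10 genes were searched for short motifs of transcription factors of the gut. NCBI RefSeq's promoter table (GRCm38.p6) held 7 of the 10 genes, all but Apoc3, Mogat2 and Dgat1. The 250 bases before each start were searched on both strands. The letters CAAAGNNCA, a core of the HNF4 motif, were found in 3 of the 7 and in 5.49% of all 32851 promoters. HNF4 is a nuclear receptor of the intestine and liver that is known to bind apolipoprotein promoters. Apoa1, at a log2 ratio of -2.46, was also among the 7 and had no such match. Any link between the motif and the ratios was not tested. The windows around the 3 matches are shown with the match in capitals and on the strand of the gene:
Apoa4: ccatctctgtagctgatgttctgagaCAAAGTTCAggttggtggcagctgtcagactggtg
Apob: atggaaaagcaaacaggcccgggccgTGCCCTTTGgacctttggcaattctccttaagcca
Fabp2: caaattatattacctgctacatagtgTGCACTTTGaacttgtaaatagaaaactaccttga

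In GRCm38.p6 these windows are chr9:46240636-46240696, chr12:7977548-7977608 and chr3:122894909-122894969, all on the plus strand. The match begins 182 bases before the start in Apoa4, 103 in Apob and 137 in Fabp2. The CDX letters TTTATG were in 2 of the 7, Fabp1 and Cd36, and in 10.8% of all promoters. The HNF1 letters GTTAAT were in Fabp1 alone of the 7 and in 6.43% of all, and the GATA letters AGATAA in 0 of the 7 and in 9.99% of all. No 2 of these matches overlapped. A match is a description of the letters in the window and no evidence of binding.

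The other genes of the pathway, in 8 lists by role, moved in both directions. Of 128 genes on these lists, 114 were tested: 17 passed as higher, 29 as lower and 68 did not pass. Over all genes tested, 5.49% passed as lower and 5.43% as higher. The median log2 ratio of the list genes was -0.21, against -1.55 for the 10 genes, and in such a median rises and falls offset each other.

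At the brush border, 4 of 12 genes passed as lower and 1 as higher. Npc1l1, the cholesterol uptake protein, was at -1.94 ± 0.14 (limma adjusted p = 0.00326). Slc27a4, which encodes fatty acid transport protein 4, was at -1.86 ± 0.22 (0.00408), and the sterol exporter gene Abcg5 at -1.29 ± 0.36 (0.0142). Scarb1, a lipoprotein receptor gene of the same family as Cd36, was the one that rose, to 1.01 ± 0.20 (0.0161).

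Of 10 intracellular carriers, 6 were tested, and the 4 left out, Fabp4, Fabp5, Fabp6 and Fabp7, were not well above background in all channels of either tissue. Fabp3, the heart-type binding protein, rose to 1.14 ± 0.12 (limma adjusted p = 0.00983). Acbd4, an acyl-CoA binding protein gene, was lower at -0.64 ± 0.05 (0.0407), and the other 4 did not pass. Of the Fabp genes among the 10 and on this list, the 3 tested thus gave 3 different results, with Fabp2 lower, Fabp1 not passed and Fabp3 higher.

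Among the 7 genes that activate fatty acids to acyl-CoA, 3 rose and 1 fell. Acsl4 was at 1.75 ± 0.24 (limma adjusted p = 0.00471), Acsl3 at 1.10 ± 0.06 (0.0102) and Acss2, which activates acetate, at 0.85 ± 0.13 (0.0215). Acsl5, the long-chain synthetase known for its level in enterocytes, was at -1.32 ± 0.10 (0.00675).

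Of 17 other genes of glycerolipid and cholesteryl ester synthesis, 6 passed as lower and 2 as higher. Agpat4 was at -1.64 ± 0.41 (limma adjusted p = 0.00875) and Dgat2, the second diacylglycerol acyltransferase, at -1.14 ± 0.14 (0.0107). The 2 cholesterol acyltransferase genes passed in opposite directions. Soat2, the form of enterocytes and hepatocytes, was at -1.46 ± 0.62 (0.022), and Soat1, the widely expressed form, at 1.40 ± 0.65 (0.0263), or 0.88 with the mean over its probes. Lpin1, a phosphatidate phosphatase gene, was at 1.40 ± 0.69 (0.0302), with mouse 1 at 1.88 and mouse 2 at 0.91.

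Of 18 genes of lipoprotein assembly, secretion and receptor turnover, 6 were lower and 3 higher. Apobec1, which edits the Apob mRNA, was at -1.02 ± 0.08 (limma adjusted p = 0.0129), and at -0.62 with the mean over its probes. Tm6sf2 and Pla2g12b, both needed for lipid loading of particles, were at -0.93 ± 0.14 (0.0173) and -0.90 ± 0.12 (0.0185). Vldlr, a lipoprotein receptor gene, was among those that rose, at 1.85 ± 0.24 (0.00413). The coat gene Sar1b did not pass, at -0.29 ± 0.08 (0.238).

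Of 14 other apolipoprotein and plasma lipid transfer genes, 8 were tested, 2 were lower and none was higher by limma, also at an unadjusted p under 0.05. Apoc2, whose product activates lipoprotein lipase, was at -2.39 ± 0.09 (adjusted p = 0.0019), close to Apob and Apoa1. Apoe was at -0.72 ± 0.20 (0.0383). Apoa2, Apoc4, Apod, Apon, Lcat and Pltp were not tested, as they were not well above background in all channels of either tissue.

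Of 16 genes of lipid droplets and lipolysis, 13 were tested, with 3 lower and 1 higher. Cidec, which enlarges droplets, was at -1.41 ± 0.03 (limma adjusted p = 0.00546). The acid lipase gene Lipa was at -0.79 ± 0.21 (0.0311) and the hormone-sensitive lipase gene Lipe at -0.73 ± 0.14 (0.0332). In the scanner software's ratios Lipa was at -1.43 and Lipe at -1.13. Hilpda, a droplet protein induced by low oxygen, was at 0.83 ± 0.18 (0.025).

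Of 34 transcriptional regulators, 33 were tested, with 6 higher, 6 lower and 21 not passed. Maf was at -2.90 ± 0.58 (limma adjusted p = 0.00381), Ppargc1a, a coactivator of mitochondrial and lipid genes, at -1.74 ± 0.39 (0.00689), and Klf4 at -1.28 ± 0.29 (0.0115). With the mean over its probes Maf was at -1.39. Foxa2 was at 1.10 ± 0.44 (0.0262), Pparg at 0.97 ± 0.13 (0.0156) and Isx, an intestinal homeobox gene, at 0.81 ± 0.05 (0.022). Of the 2 HNF4 genes, whose motif is described above, Hnf4g passed as lower, at -0.74 ± 0.31 (0.0498), and Hnf4a did not pass, at -0.57 ± 0.23 (0.0735). Many of these calls depend on the normalization: with median centring in place of loess, 2 of the pathway genes passed as lower and 4 as higher, and none of the 33 pathway genes chosen by the naming rule changed sign.

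**Figure D4:**
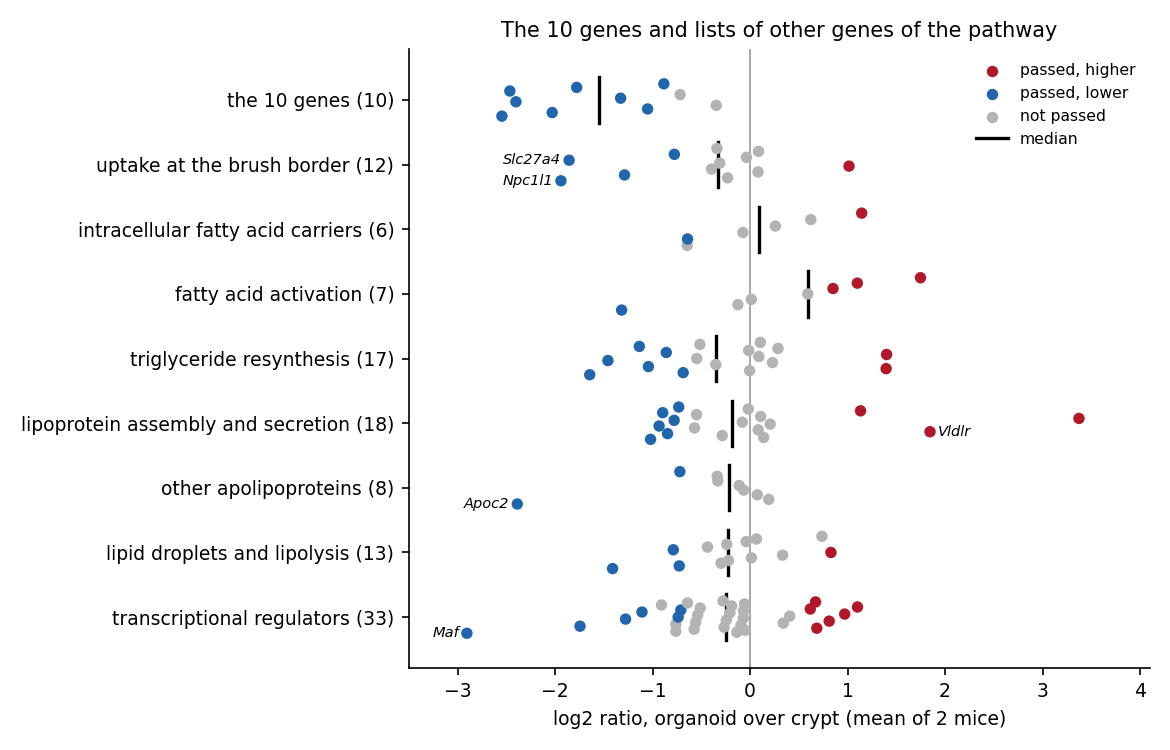
Each point is the mean log2 ratio of 1 tested gene (horizontal axis), in rows for the 10 genes and for each list, with the number tested in brackets. Colours mark genes that passed the test as higher or lower and black bars the medians; the median of the 10 genes is -1.55, and those of the lists lie between -0.35 and 0.59.

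The cell types in the samples were read from marker lists. All 9 genes of the small intestinal epithelium list, among them Epcam and Vil1, were well above background in every channel. Of these, 4 passed as lower, 2 as higher and 3 did not pass, with a median of -0.59. The brush border gene Vil1 was at -1.56 ± 0.13 (limma adjusted p = 0.00483). Krt8 was at -0.90 ± 0.15 (0.0194), Krt19 at -0.72 ± 0.05 (0.0306) and Cldn7 at -0.64 ± 0.04 (0.0407). Krt18, a keratin gene, was at 1.26 ± 0.36 (0.015). The stem cell gene Lgr5 was at 2.29 ± 0.05 (0.00202), and Olfm4, also a stem cell gene, did not pass, at -0.09 ± 0.21 (0.763). The summed intensity of the list was 548280 to 631320 in the crypt channels and 384360 to 492800 in the organoid channels. With median centring its median was -0.17 and the 4 lower calls were lost. All 8 villus enterocyte markers passed as lower, with a median of -2.10, from -1.16 for sucrase-isomaltase (Sis) to -4.47 for lactase (Lct). Those tested were below 0 in each alternative, and 5 of the 8 passed with median centring. Their summed intensity was 269810 to 371610 in the crypt channels and 65012 to 83624 in the organoid channels. These markers thus moved with the 8 genes that fell, and their part in the result was not tested. Residual villus cells in the crypt fraction and a lower level in the organoids' own absorptive cells cannot be told apart here.

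Markers of other cell types had low summed intensities where tested, apart from one macrophage gene, though some were above background in every channel. Of 8 endothelial markers, 3 were tested and none passed by limma, with 0 also at an unadjusted p under 0.05. Their summed intensity was 774 to 844 in crypts and 768 to 856 in organoids. Vwf and Esam were above background in all 8 channels, and Tek in 4 crypt and 3 organoid channels. Kdr was above background in 1 crypt channel alone, and Pecam1, Cdh5, Tie1 and Emcn in 0 channels. None of 6 adipocyte markers was tested, and Adipoq, Lep, Cfd and Fabp4 were above background in 0 channels. Plin1 was above background in 1 channel of each tissue, and Retn in 2 crypt channels and 1 organoid channel. Of 7 macrophage markers, 5 were tested. Csf1r, Cd68 and Cd14 were above background in all 8 channels and did not pass, and Adgre1 was above background in 0 channels. Itgam was at -0.56 ± 0.38 and did not pass (limma adjusted p = 0.112, unadjusted p = 0.022). The Itgam probe used was above background in 4 crypt channels and 0 organoid channels. The one that passed was Lyz2, at -2.32 ± 0.18 (limma adjusted p = 0.00244). Paneth cells of the crypt express Lyz1, a near-identical gene, so the source of the Lyz2 signal is uncertain. A second Lyz2 probe, well above background in all 4 crypt channels but in 1 organoid channel, gave -0.59 ± 0.20 and did not pass (adjusted p = 0.0689 over all probes). Without Lyz2 the macrophage sum was 1268 to 1902 in crypts and 1157 to 1428 in organoids. Of 7 hepatocyte markers, 3 were tested. Alb was at 0.92 ± 0.05 (limma adjusted p = 0.0162), and Tat, above background in all 8 channels, did not pass. Apoh, above background in 4 crypt and 2 organoid channels, was at -0.34 ± 0.07 and did not pass (limma adjusted p = 0.173). Ahsg was above background in 0 channels. The sum over the tested markers was 741 to 882 in crypts and 934 to 1043 in organoids.

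**Figure D5:**
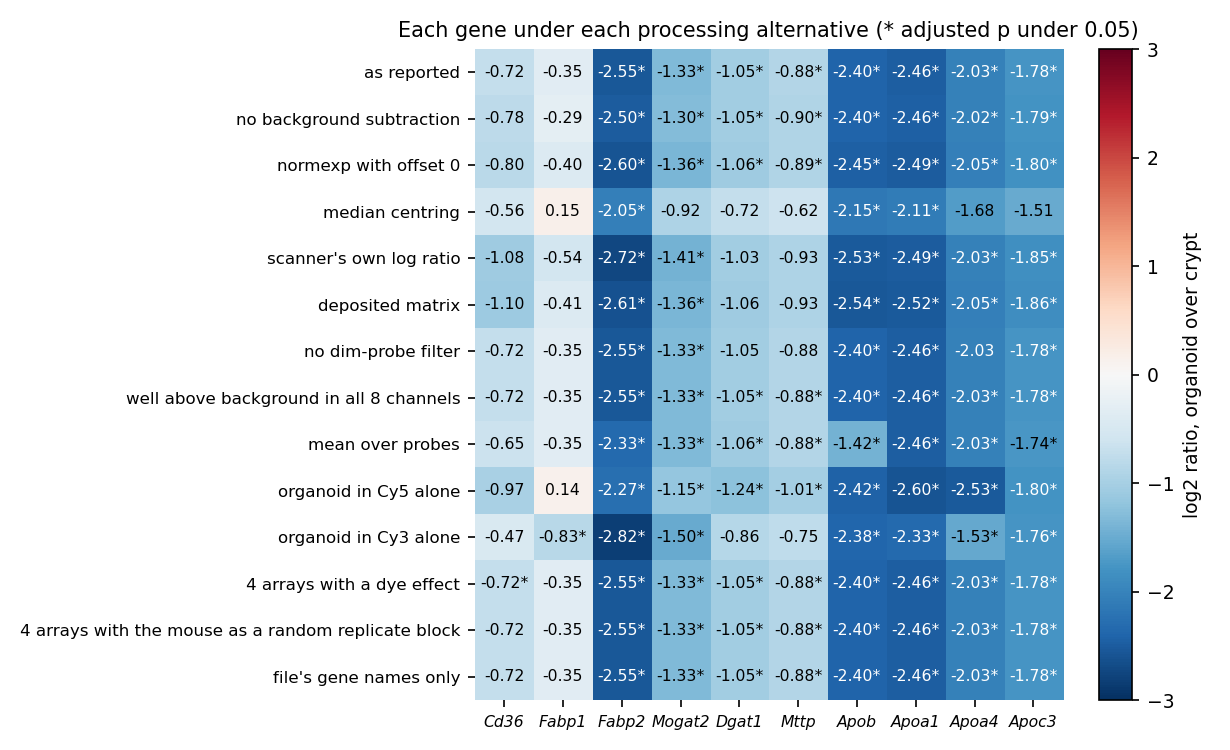
Each cell gives the log2 ratio of organoid over crypt of 1 gene (columns) under 1 way of processing (rows), on a colour scale from -3 to 3, with a star where the adjusted p was under 0.05. Fabp2, Apob and Apoa1 have a star in every row, and only Fabp1 changes sign, at 0.15 with median centring and 0.14 with organoid RNA in Cy5 alone.

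Across the 4 arrays, crypt RNA gave a signal well above background at 53.7% to 67.2% of probes and organoid RNA at 51.5% to 61.7%. The 2 dye orientations of a mouse correlated with r = 0.837 and r = 0.850 over genes, and the 2 mice with r = 0.767; genes are not independent replicates. The 4 arrays lay on one slide and were scanned together, so neither slide nor scan separates the groups.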

How the data were processed

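Crypt and organoid RNA of 2 mice was measured on 4 two-colour Agilent arrays. Per the file headers, images were read with Feature Extraction 10.2.1.3 (9.5.3 per the submitters' processing notes). The deposited intensity columns used give each spot's mean signal and its median local background, per dye. The deposited log10 ratio is the scanner software's, background-subtracted and dye-normalized. The authors' matrix holds log2 ratios of Cy5 over Cy3, judged by setting it against the scanner ratios (r from 0.978 to 0.991); each column's median is 0, and its centring is not described in the labels or headers. RNA was extracted with Trizol according to the labels, but with an RNeasy kit in the design text.

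With limma 3.58.1 (R 4.3.3), background was corrected by normexp (offset 50) and each array by loess, giving controls no weight and dropping outlier-marked spots. Spots of a probe were averaged and ratios put in the direction organoid over crypt from the labels' dyes. A probe was tested if every crypt channel or every organoid channel was well above background (21923 probes). A gene took its probe of highest mean intensity and its RefSeq symbol by accession, otherwise the file's gene name. The mouse means were tested against 0 (lmFit, eBayes, two-sided), with 1 residual and 4.16 prior degrees of freedom. Intervals are moderated 95% intervals. Of each pathway list, the text names up to 3 genes of largest change passing in each direction, except that some such genes are counted but not reported here by name, and other genes that a sentence needs, such as Sar1b, Hnf4a and Hnf4g, were chosen after their values were seen. The 10 genes and all lists were chosen with earlier results of these data known. The promoter search was added after the data were seen. Alternatives to the background correction, normalization, filter, choice of probe, dye orientation and model were computed.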

Additional observations from a re-analysis of the deposited data

How the results depend on the processing

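Counts of genes passing the test depended strongly on the setting. Over all genes, 1697 passed as reported, 224 with median centring in place of loess, 677 with no filter on dim probes, 3080 with the mouse as a random replicate block over 4 arrays, 3709 with a dye term over 4 arrays, and 908 from the arrays with organoid RNA in Cy3. Of the 10 genes, 3 passed as lower with median centring, 5 with no filter on dim probes and 6 to 9 in the other alternatives, with 8 under the replicate block, which changed no call among them. None passed as higher in any alternative. Apoa1, Apob and Fabp2 kept their call in all 13 alternatives. Mttp and Dgat1 each lost it in 5, Apoa4 in 2 (median centring, adjusted p = 0.126; no filter, 0.065), and Apoc3 (0.0933) and Mogat2 (0.301) with median centring. Cd36 passed with 4 arrays and a dye effect (0.0466). Fabp1 passed with organoid RNA in Cy3 alone, at -0.83 (0.0396).

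The median of the 10 was -1.21 with median centring, where the median of all genes shifted to 0.17, and -1.38 with the mean over probes. It was -1.48 and -1.59 with either mouse alone, where a single mouse allows no test. Of the 33 pathway genes that the naming rule chose, 5, among them Acsl4, Vldlr, Apoc2 and Maf, kept their call in all alternatives that tested them, and 6 kept it with median centring. Of the pathway list genes, 2 to 42 passed as lower and 4 to 23 as higher over the alternatives.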
